A study of Mus musculus with 23 samples.

Results

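The inflammasome and IL-1 family was followed as 10 genes, listed by name, among the 35322 genes of an RNA-Seq table of mouse lung: the sensors Nlrp3, Aim2 and Nlrc4, the adaptor Pycard, the protease Casp1, the pore former Gsdmd, the cytokines Il1a, Il1b and Il18, and the antagonist Il1rn. Inflammasomes are cytosolic complexes in which a sensor of danger or infection recruits the adaptor ASC, the product of Pycard, and through it caspase-1. Caspase-1 cleaves gasdermin D (Gsdmd), whose fragment forms pores in the cell membrane, and it cleaves the precursors of IL-1β (Il1b) and IL-18 (Il18) into their active forms. IL-1α (Il1a) signals through the same receptor as IL-1β without needing that cleavage, and the receptor antagonist (Il1rn) occupies the receptor without activating it. Because cleavage and release follow translation, mRNA levels describe the supply of these proteins and not inflammasome activity.

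The lungs came from 23 Balb/c offspring in 4 groups. In the 7 Sham and 7 PM animals the dam had received saline or PM2.5 intranasally and the offspring PBS according to the labels, or nebulised saline according to the methods. The 5 Sham-OVA and 4 PM-OVA animals had the same maternal exposures and were sensitised to ovalbumin (OVA) with an alum adjuvant and then challenged with nebulised OVA, the model of allergic airway disease (AAD). All were 13 weeks old and female according to the methods, and all had been through lung function testing with methacholine before collection. The labels name the tissue as Lung (RML) and the methods as the right lower lobe, a whole-tissue homogenate of many cell types, and no label ties an animal to its dam. Values are reads scaled to the same total of mapped reads in every library (RPM), and every one of the 10 genes passed the filter of at least 0.5 RPM in at least 4 libraries, together with 16795 genes in all.

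Features of the libraries bear on every value below. Reads on genes ranged from 13089691 to 17393579 in the 14 saline libraries, but from 2298645 to 12355561 in the 9 OVA libraries, so that depth and OVA challenge cannot be told apart. The shallowest were replicate 3 of Sham-OVA and replicates 3 and 4 of PM-OVA, with 2298645, 5922469 and 4324326 reads, and results were also computed without them. Replicates are numbered as in the sample titles, and in the OVA groups most of these numbers differ from those in the library names. In all 9 OVA libraries longer genes had lower values relative to Sham, with a slope of -0.447 to -0.168 on the log2 scale per doubling of exon length, against -0.0916 to 0.0805 in the saline libraries, and the median of all genes tested was shifted by -0.48 in Sham-OVA against Sham and by -0.43 in PM-OVA against PM. Sham replicate 1 went against its description as female, with 54.0 RPM of the Y-linked gene Eif2s3y and 0.289 RPM of Xist. Lung markers were present in every group (surfactant protein genes Sftpc and Sftpb, the alveolar type I gene Ager, the endothelial gene Cldn5), while Marco averaged 2.76 RPM in Sham and 0.234 RPM in Sham-OVA.

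After OVA challenge the mRNAs of the adaptor and the antagonist were higher, and those of IL-1α and Nlrp3 lower, in both cohorts. With the trend on coding length removed, Nlrp3 passed the test in neither cohort. Pycard rose 7.64-fold in Sham offspring and 6.05-fold in PM offspring, and Il1rn rose 4.51-fold and 3.07-fold. Il1a fell by 2.33 on the log2 scale in each cohort, and the level of Il1b did not differ by the test in either. At an adjusted p under 0.05 (limma across all genes, Benjamini-Hochberg adjustment), 2 of the 10 genes were higher and 5 lower in Sham-OVA against Sham, where 20.6% of all genes tested were higher and 47.5% lower. In PM-OVA against PM, 2 were higher and 4 lower, where the background was 20.1% higher and 45.2% lower. The counts of higher and of lower genes are thus each near the share of all genes that moved in that direction. Those shares moved with the scaling. With median-of-ratios scaling 4903 genes were higher and 6407 lower in the Sham cohort, against 3453 and 7978 as deposited, and 4862 were higher and 6003 lower in the PM cohort, against 3379 and 7589, and of the 10 genes 2 were then lower in the Sham cohort and 3 in the PM cohort. With edgeR, 5584 genes were higher and 5669 lower in the Sham cohort, and 5120 and 5095 in the PM cohort, with 1 and 3 of the 10 lower. At the stricter threshold of an adjusted p under 0.000001 with an absolute log2 fold change above 1, which 4.51% of all genes passed in the Sham cohort and 0.286% in the PM cohort, Pycard alone passed in the Sham cohort and none of the 10 in the PM cohort. This threshold moved with the tool and the libraries. DESeq2 put 4814 genes and 3 of the 10 past it in the Sham cohort and 2817 genes and 3 of the 10 in the PM cohort, against 758 and 48 genes with limma. Without Sham-OVA replicate 3 limma put 3085 genes and 2 of the 10 past it, and without PM-OVA replicate 1, in the PM cohort, 504 genes and 1 of the 10. With the replicate block, on the numbers in the sample titles, it was 5 and 0 genes, with none of the 10. No label ties animals of the same number to each other.

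**Figure D1:**
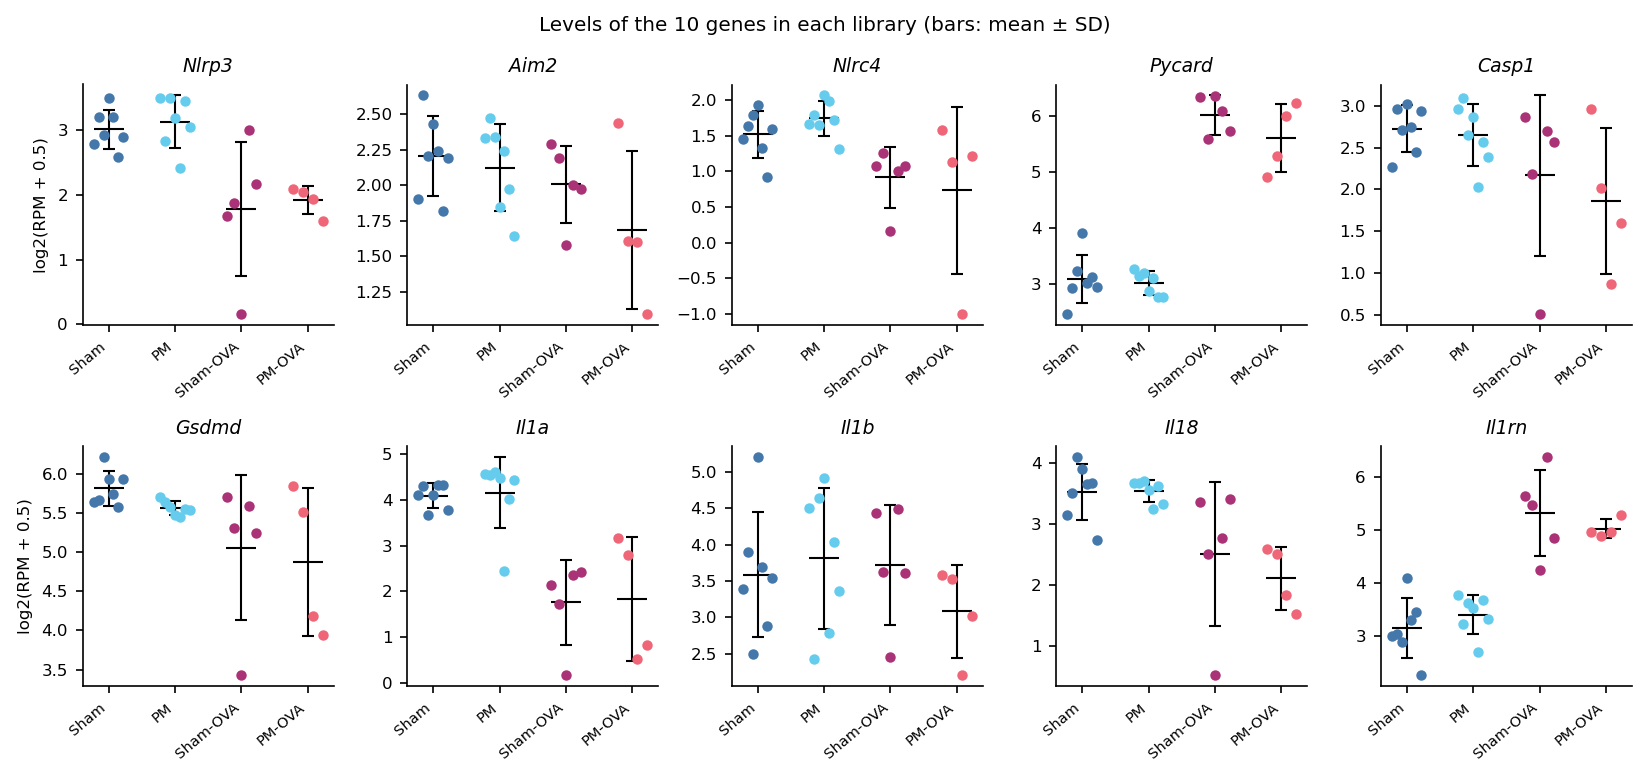
Level of each of the 10 genes in every library, as log2(RPM + 0.5) on the vertical axis and the 4 groups on the horizontal axis. Points are libraries (7 Sham, 7 PM, 5 Sham-OVA, 4 PM-OVA), and bars give the mean ± SD. For Pycard and Il1rn every OVA library lies above every saline library, while the points of Aim2 and Il1b overlap.

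Pycard lies on the minus strand of chromosome 7 (127989708 to 127993867, GRCm38, GENCODE annotation). In the 7 Sham libraries it ranged from 5.02 to 14.6 RPM with a median of 7.64, and in the 7 PM libraries from 6.26 to 9.15 RPM with a median of 8.10. In Sham-OVA the 5 libraries held 81.1, 47.5, 81.4, 67.5 and 52.7 RPM. In PM-OVA the 4 libraries held 29.8, 38.7, 63.7 and 74.6 RPM. The OVA libraries thus did not overlap the saline libraries in either cohort. The log2 fold change was 2.93 (SE 0.23, limma adjusted p = 1.18e-07) in Sham offspring and 2.60 (SE 0.24, limma adjusted p = 8.61e-06) in PM offspring, on the log2(RPM + 0.5) scale used for all fold changes here. The gene stayed past the threshold in each of the 27 alternatives in the Sham cohort and the 26 in the PM cohort, with log2 fold changes of 2.83 to 3.59 and 2.09 to 3.26. Its annotated transcript is 3800 bp long, of which 579 bp are coding, and with the trend on coding length removed the values were 2.99 and 2.68. The antisense gene Gm45205, which overlaps its exons, had at most 0.190 RPM in any library.

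Il1rn (chromosome 2, 24336853 to 24351494, plus strand) ranged from 4.32 to 16.7 RPM in Sham with a median of 7.73, and from 6.04 to 13.2 RPM in PM with a median of 11.1. The Sham-OVA libraries held 49.8, 44.2, 18.6, 82.8 and 28.3 RPM. The PM-OVA libraries held 30.6, 29.2, 30.8 and 38.7 RPM. Again all OVA libraries were above all saline libraries, and the 4 PM-OVA libraries were closer together than the 5 Sham-OVA libraries. Its log2 fold change was 2.17 (SE 0.35, limma adjusted p = 6.97e-05) in the Sham cohort and 1.62 (SE 0.20, limma adjusted p = 7.28e-05) in the PM cohort. It ranged from 1.91 to 2.78 and from 1.49 to 2.20 over the alternatives, past the threshold in all of them.

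The groups of libraries did not overlap for 3 of the 10 genes in the Sham cohort (Pycard, Il1rn, Il1a), against 48.1% of all genes tested, and for 4 in the PM cohort (Pycard, Il1rn, Nlrp3, Il18), against 41.9%. In a homogenate, more cells of a type and more RNA per cell cannot be told apart. Of 6 interstitial macrophage markers (C1qa, C1qb, C1qc, Ms4a7, Apoe, Mmp12), all 6 were higher after OVA in both cohorts, with a summed level of 736 to 1359 RPM in Sham, 3479 to 5112 in Sham-OVA, 872 to 1457 in PM and 3404 to 3991 in PM-OVA. Of the 6 eosinophil markers 5 could be tested and 4 were higher in both cohorts (Epx, Prg2, Ccr3, Il5ra), with Siglecf lower and sums of 3.66 to 14.01, 19.6 to 48.1, 4.93 to 15.8 and 20.9 to 29.6 RPM in the same order of groups. Of the 8 neutrophil markers 1 was higher and 2 lower in the Sham cohort, and 2 higher and 3 lower in the PM cohort. In that list Retnlg had the largest rise and Cxcr2 the largest fall, and the sums of 71.2 to 732 RPM in Sham and 143 to 761 RPM in Sham-OVA overlapped, as did those of 72.3 to 458 RPM in PM and 238 to 273 RPM in PM-OVA. Of the 8 alveolar macrophage markers 7 could be tested, with 2 higher and 3 lower in each cohort. Mrc1 was higher in both, Fabp4 in the Sham cohort and Atp6v0d2 in the PM cohort. Marco, Fabp1 and Pparg were lower in both, and Marco and Fabp1 averaged under 0.5 RPM after OVA. The sums of the whole list, which thus rose while these genes fell, were 66.5 to 150 RPM in Sham and 178 to 277 in Sham-OVA. They were 109 to 148 RPM in PM and 173 to 241 in PM-OVA. Of the 6 classical monocyte markers, 2 were higher in the Sham cohort (Chil3, Ly6c2) and 3 in the PM cohort (Chil3, Ly6c2, Ccr2). None was called lower, but Vcan, F13a1 and Ms4a4c had negative log2 fold changes in both cohorts, and the list medians were 0.09 and 0.10. Ly6c2 averaged under 0.5 RPM in Sham, PM and Sham-OVA. The sums were 65.6 to 106 RPM in Sham, 49.7 to 179 in Sham-OVA, 70.9 to 88.1 in PM and 90.0 to 173 in PM-OVA. The 6 dendritic cell markers had 2 higher and 2 lower in the Sham cohort, and 2 higher and 0 lower in the PM cohort. Airway epithelium markers, 6 in all, had 0 higher and 1 lower in the Sham cohort, and 2 higher and 1 lower in the PM cohort. The part of these cells in the levels of Pycard, Il1rn or any other of the 10 genes was not tested.

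To show what surrounds the start sites of the genes that moved, RefSeq promoter windows (GRCm38.p6, 250 bases before to 50 after each start, read 5′ to 3′ on the gene's strand) were searched for GGGA, then any 4 bases, then CC, a short form of the site bound by NF-kappa-B, on both strands. The motif was in 20.7% of all 32851 windows of this length and in 2 of the 12 windows of 9 of the 10 genes. Gsdmd had no entry. The windows shown are those of the pair that rose (for Il1rn the most upstream of 3), of the IL-1 agonists, and the other window that holds the motif, which is in capitals.
Pycard, chr7:127993818-127994117, minus strand: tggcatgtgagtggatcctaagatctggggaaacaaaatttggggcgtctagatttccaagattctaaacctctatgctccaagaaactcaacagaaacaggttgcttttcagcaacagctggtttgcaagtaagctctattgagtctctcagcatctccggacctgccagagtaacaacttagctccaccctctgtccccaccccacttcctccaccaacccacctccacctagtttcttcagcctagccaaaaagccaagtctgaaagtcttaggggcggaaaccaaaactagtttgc
Il1rn, chr2:24336610-24336909, plus strand: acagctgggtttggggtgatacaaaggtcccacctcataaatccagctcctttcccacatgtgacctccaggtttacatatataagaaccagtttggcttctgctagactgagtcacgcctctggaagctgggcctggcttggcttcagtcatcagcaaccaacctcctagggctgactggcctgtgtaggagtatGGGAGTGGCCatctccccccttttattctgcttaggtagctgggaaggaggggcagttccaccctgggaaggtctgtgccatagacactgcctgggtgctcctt
Il1a, chr2:129309923-129310222, minus strand: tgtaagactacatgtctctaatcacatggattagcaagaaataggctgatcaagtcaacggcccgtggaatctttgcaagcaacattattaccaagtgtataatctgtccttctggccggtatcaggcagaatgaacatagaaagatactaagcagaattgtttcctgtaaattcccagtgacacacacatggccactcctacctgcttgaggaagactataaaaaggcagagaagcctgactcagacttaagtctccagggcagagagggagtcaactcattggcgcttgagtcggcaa
Il1b, chr2:129371090-129371389, minus strand: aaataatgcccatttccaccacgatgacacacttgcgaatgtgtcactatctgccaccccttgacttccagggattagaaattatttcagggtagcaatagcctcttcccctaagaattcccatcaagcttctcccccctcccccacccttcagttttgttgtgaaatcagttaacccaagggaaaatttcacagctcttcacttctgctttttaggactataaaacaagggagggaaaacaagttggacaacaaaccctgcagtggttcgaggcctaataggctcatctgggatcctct
Nlrp3, chr11:59541319-59541618, plus strand: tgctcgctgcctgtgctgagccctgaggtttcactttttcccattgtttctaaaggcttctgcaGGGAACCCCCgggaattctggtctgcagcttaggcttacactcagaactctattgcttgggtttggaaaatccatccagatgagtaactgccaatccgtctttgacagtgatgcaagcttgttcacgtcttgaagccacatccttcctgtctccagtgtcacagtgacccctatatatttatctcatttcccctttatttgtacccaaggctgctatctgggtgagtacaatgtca
In the Il1rn window the motif begins at position -54 and in the Nlrp3 window at position -186, counted so that the base before the start site is -1. The gene that rose most, Pycard, and the gene that fell most, Il1a, both lack these letters in the window, as does Il1b. A match is a string of letters and not a measured binding site.

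Among the sensors, Nlrp3 fell in both cohorts. Nlrp3 (chromosome 11, 59541568 to 59566956) responds to potassium efflux, crystals and many other forms of cell stress. It ranged from 5.52 to 10.8 RPM in Sham with a median of 7.12, and from 4.87 to 10.9 RPM in PM with a median of 8.63. Sham-OVA libraries held 2.71, 3.16, 0.621, 7.57 and 4.02 RPM, of which 4 of 5 were below every Sham library. PM-OVA libraries held 3.76, 3.63, 3.32 and 2.54 RPM, all below every PM library. Nlrp3 had a log2 fold change of -1.23 (SE 0.37, limma adjusted p = 0.00791) in the Sham cohort and -1.22 (SE 0.23, limma adjusted p = 0.000749) in the PM cohort. With median-of-ratios scaling, under which the median gene stood at -0.17 and -0.13, it was -0.94 and -0.89 and stayed past the threshold. With the trend on coding length removed it was -0.45 and -0.47 and passed in neither cohort. The value of 0.621 RPM in Sham-OVA replicate 3 stands for 2 reads.

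Nlrc4, which with the Naip proteins senses bacterial flagellin and secretion systems, had the lowest level per kb of transcript in Sham and was at 1.39 to 3.30 RPM in Sham and 1.99 to 3.69 RPM in PM. The Sham-OVA libraries held 1.60, 1.88, 0.621, 1.51 and 1.61 RPM, and the PM-OVA libraries 2.49, 1.70, 0 and 1.82 RPM. The 0 in PM-OVA replicate 3 allows up to 0.398 RPM at 3 reads, for counting error only. Nlrc4 was past the threshold in both cohorts, with log2 fold changes of -0.61 (SE 0.23, limma adjusted p = 0.0320) and -1.01 (SE 0.40, limma adjusted p = 0.0388), but in only 10 of 27 and 8 of 26 alternatives. With the trend on coding length removed it was 0.18 in the Sham cohort, in the opposite direction, and -0.27 in the PM cohort. The call thus depends on the processing.

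Aim2, the sensor of DNA in the cytosol, passed the test in neither cohort. It ranged from 3.02 to 5.70 RPM in Sham, 2.62 to 5.06 RPM in PM, 2.49 to 4.38 RPM in Sham-OVA and 1.63 to 4.90 RPM in PM-OVA, and the groups overlapped. Its log2 fold change was -0.20 (95% interval -0.63 to 0.24) and -0.44 (95% interval -0.999 to 0.12). In the Sham cohort its sign was positive in 7 of the 27 alternatives.

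Casp1 and Gsdmd, the protease and the pore former, spread widely within the OVA groups. Casp1 (chromosome 9, 5298517 to 5307265) ranged from 4.33 to 7.61 RPM in Sham and from 3.58 to 8.03 RPM in PM. In Sham-OVA the libraries held 6.81, 4.06, 0.932, 5.98 and 5.40 RPM, and the PM-OVA libraries 7.26, 3.56, 1.33 and 2.54 RPM. The lowest 3 values are those of the 3 shallowest libraries. Casp1 had a log2 fold change of -0.56 (95% interval -1.29 to 0.17, limma adjusted p = 0.159) and -0.79 (95% interval -1.52 to -0.05, limma adjusted p = 0.0562), and without those 3 libraries it was -0.15 and -0.16.

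Gsdmd (chromosome 15, 75862327 to 75867408) had the highest level per kb of transcript of the 10 genes, and was at 47.5 to 74.1 RPM in Sham and 43.2 to 52.0 RPM in PM. The Sham-OVA libraries held 52.0, 39.3, 10.3, 47.7 and 37.6 RPM, and the PM-OVA libraries 57.4, 45.4, 17.7 and 14.9 RPM. As for Casp1, the 3 lowest values belong to the 3 shallowest libraries, and the other 6 OVA libraries lay at 37.6 to 57.4 RPM. The log2 fold change was -0.76 (SE 0.31, limma adjusted p = 0.0426) in the Sham cohort and -0.69 (SE 0.31, limma adjusted p = 0.0640) in the PM cohort. Without the 3 libraries it was -0.35, still past the threshold, in the Sham cohort and 0.12, in the opposite direction, in the PM cohort. With median-of-ratios scaling it was -0.40 and -0.33 and passed in neither.

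**Figure D2:**
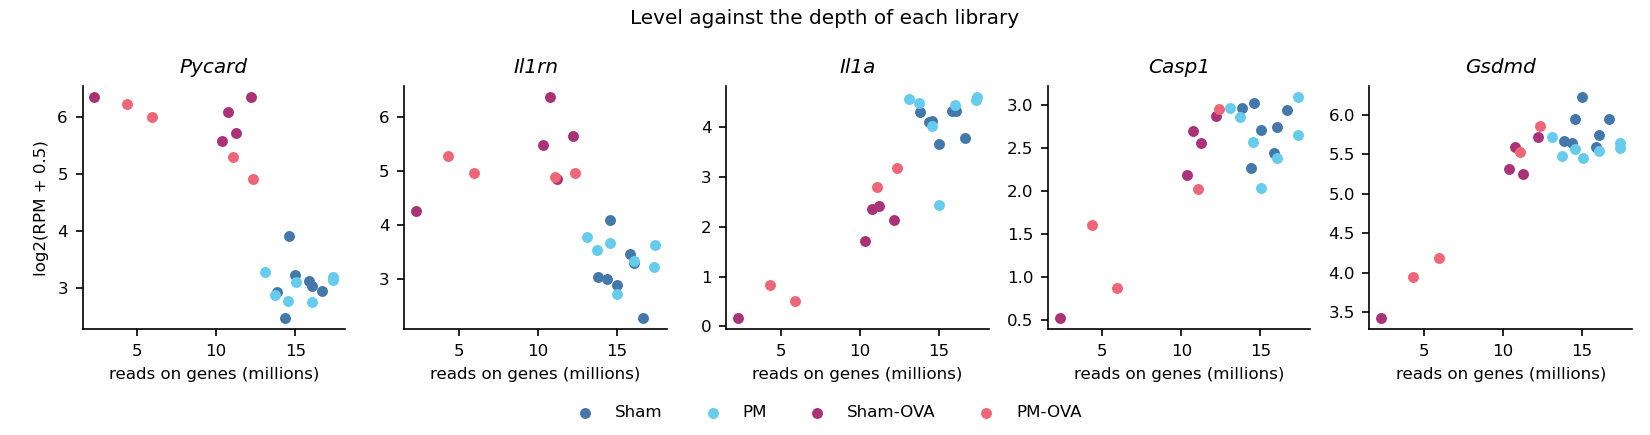
Level of Pycard, Il1rn, Il1a, Casp1 and Gsdmd, as log2(RPM + 0.5), against the reads on genes of each library, coloured by group. The 3 libraries with the fewest reads have the lowest Casp1 and Gsdmd and the lowest Il1a, while their Pycard lies among the other OVA libraries or above them.

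The 3 IL-1 family cytokines differed from each other. Il1a (chromosome 2, 129299610 to 129309972, minus strand) ranged from 12.2 to 19.6 RPM in Sham with a median of 16.8, and from 4.93 to 23.8 RPM in PM with a median of 21.7. The Sham-OVA libraries held 3.89, 2.78, 0.621, 4.62 and 4.82 RPM, all below every Sham library. The PM-OVA libraries held 8.53, 6.41, 0.929 and 1.27 RPM, of which 2 were below every PM library, because PM replicate 5 held 4.93 RPM. The log2 fold change was -2.33 (SE 0.33, limma adjusted p = 2.57e-05) and -2.33 (SE 0.54, limma adjusted p = 0.00256). In the Sham cohort it stayed past the threshold in all 27 alternatives, at -2.54 to -1.82. In the PM cohort it did so in 25 of 26, and without the 3 shallowest libraries it was -1.17 (limma adjusted p = 0.0575) with 2 PM-OVA libraries remaining. The antisense gene Gm14023, which overlaps its exons, had at most 1.04 RPM, and the strand setting used for counting is not given in the sources used here.

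Il1b (chromosome 2, 129364570 to 129371139, minus strand) spread more widely than Il1a in saline lungs. It ranged from 5.15 to 36.3 RPM in Sham with a median of 11.1, and from 4.91 to 29.5 RPM in PM with a median of 15.9. In Sham-OVA the libraries held 21.2, 11.8, 4.97, 21.9 and 11.8 RPM, and the PM-OVA libraries 11.5, 11.1, 4.12 and 7.63 RPM, within or just below the range of the saline libraries. Il1b had a log2 fold change of 0.14 (95% interval -0.77 to 1.05, limma adjusted p = 0.788) in the Sham cohort and -0.73 (95% interval -1.75 to 0.30, limma adjusted p = 0.192) in the PM cohort. Both intervals include 0 and a change in either direction.

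Il18 (chromosome 9, 50554827 to 50581840), which airway epithelium and macrophages make without prior stimulation, ranged from 6.18 to 16.7 RPM in Sham and from 9.04 to 12.6 RPM in PM. In Sham-OVA the libraries held 9.80, 5.19, 0.932, 6.29 and 10.2 RPM, of which 2 were below every Sham library. The PM-OVA libraries held 5.51, 5.18, 3.05 and 2.36 RPM, all below every PM library. The log2 fold change was -1.02 (SE 0.42, limma adjusted p = 0.0436) and past the threshold in 11 of 27 alternatives in the Sham cohort, against -1.44 (SE 0.22, limma adjusted p = 0.000231) and 26 of 26 in the PM cohort. Whether the cohorts differ is a question for the interaction, given below.

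**Figure D3:**
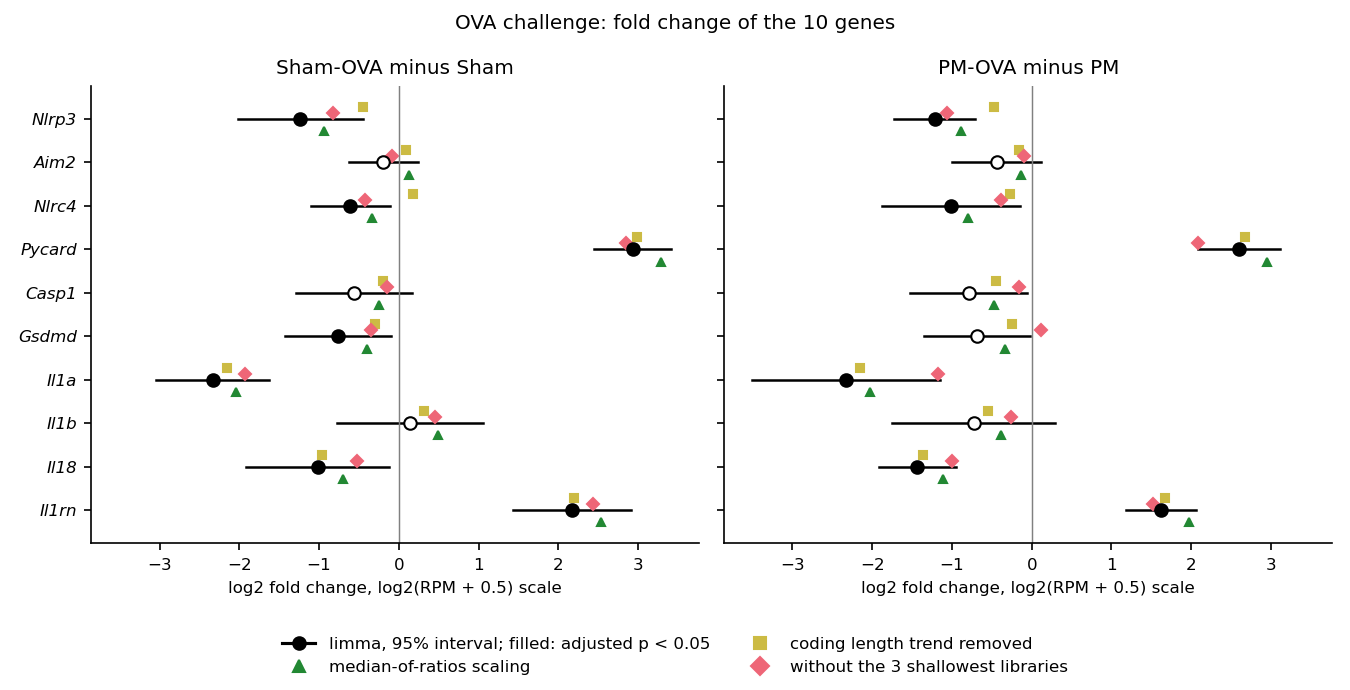
Log2 fold change of the 10 genes with OVA challenge in Sham offspring (left) and PM offspring (right), on the log2(RPM + 0.5) scale. Circles with bars are limma estimates with 95% intervals, filled where the adjusted p is under 0.05, and triangles, squares and diamonds give 3 alternatives. Pycard and Il1rn lie right of 0 and Il1a left of 0 by every estimate shown, while Nlrc4 in Sham offspring and Gsdmd in PM offspring have estimates on both sides.

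Set against gene length, the order of the genes changed with OVA. Per kb of the principal transcript, Gsdmd led in Sham with a mean of 31.6 RPM per kb, followed by Il18 at 13.4, Il1b at 10.1 and Il1a at 8.49 RPM per kb, while Il1rn stood at 3.64 and Pycard at 2.20 RPM per kb. In Sham-OVA the order was Gsdmd at 20.9, Il1rn at 18.1, Pycard at 17.4 and Il1b at 10.6 RPM per kb, with Il1a at 1.70 RPM per kb. Pycard's place depends on the long UTR in its annotated transcript. Per kb of coding sequence it ranked 6 of 10 in Sham at 14.5 RPM per kb and 1 of 10 in Sham-OVA at 114 RPM per kb.

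Maternal PM2.5 exposure was not followed by a called difference in any of the 10 genes. In PM against Sham 0 of 10 passed with limma, edgeR or DESeq2, and the background was 0% of all genes tested, although 731 genes had an unadjusted p under 0.05. Gsdmd was among them, the only 1 of the 10 with all libraries. It was at 43.2 to 52.0 RPM in PM and 47.5 to 74.1 RPM in Sham, with 5 of 7 PM libraries below every Sham library, a log2 fold change of -0.25 (95% interval -0.45 to -0.06) and a limma adjusted p of 0.898. The other 9 had log2 fold changes of -0.08 to 0.26. For Il1a 5 of 7 PM libraries were above every Sham library and 1, replicate 5, below every Sham library, and without that replicate Il1a was 0.35 higher on the log2 scale and also had an unadjusted p under 0.05 (limma adjusted p = 0.741). Over all genes tested, replicate 5 was also the PM library least correlated with the others, at 0.9741 to 0.9775. In PM-OVA against Sham-OVA, 0 of 10 passed with each of the 3 tools. The background was 0% with limma, DESeq2 called 1 gene in all, and there were 313 genes and 0 of the 10 at an unadjusted p under 0.05 with limma. That count was 176 to 848 genes when 1 library was left out, with 2 of the 10 (Il1b and Il18, both lower) without Sham-OVA replicate 3. It was 3213 genes and 2 of the 10 (Pycard lower, Il1a higher) without the 3 shallowest libraries, and edgeR and DESeq2 each had 1 of the 10, Il1b. Log2 fold changes ran from -0.64 for Il1b (95% interval -1.69 to 0.41) to 0.14 for Nlrp3 (95% interval -0.997 to 1.27). With 5 and 4 libraries, differences within these intervals could not be told from 0.

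The interaction of maternal exposure and OVA, which asks whether the response to OVA differed between cohorts, was called for 0 of the 10 genes and for 0% of all genes with limma, with 854 genes and 0 of the 10 at an unadjusted p under 0.05. edgeR called 0 and DESeq2 2 genes, neither among the 10. The largest differences between the cohorts' responses were -0.86 for Il1b (95% interval -2.26 to 0.53) and -0.56 for Il1rn (95% interval -1.45 to 0.34). For Il18 it was -0.42 (95% interval -1.49 to 0.65), so its firmer fall in PM offspring was not shown to differ from that in Sham offspring. With array weights, which let libraries count unequally, 5 of the 10 genes (Casp1, Gsdmd, Il18, Il1a, Nlrc4) had a lower response in PM offspring, among 4616 genes called, of which 3965 were lower and 651 higher, with the median of all genes at -0.32. Without the 3 shallowest libraries the balance was the opposite, with 612 genes higher, 109 lower, 0 of the 10 called and the median at 0.14.

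Ratios within a library barely move with its scaling, although a trend with gene length can move them, and its part was not tested. Here 3 pairs of opposed genes were compared in 4 contrasts each with two-sided exact permutation tests, with p adjusted over the 12. The first sets the antagonist against its agonist. The ratio of Il1rn to Il1b ranged from 0.414 to 1.498 in Sham with a median of 0.763, and from 0.385 to 1.73 in PM with a median of 0.780. It was 2.32, 3.63, 3.50, 3.72 and 2.35 in the Sham-OVA libraries and 2.60, 2.57, 6.78 and 4.82 in the PM-OVA libraries. All OVA libraries were above all saline libraries, the 3 shallowest included. The difference was 2.03 on the log2 scale in Sham offspring (exact p = 0.00253, adjusted p = 0.0152) and 2.34 in PM offspring (exact p = 0.00606, adjusted p = 0.0182). Both raw p-values are the smallest that these group sizes allow. Il1rn itself rose by 2.17 and 1.62, while Il1b was not called in either cohort, at 0.14 and -0.73. The ratio holds Il1rn and so is not independent of its rise.

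The second sets Il18bp, the soluble protein that neutralises IL-18, against Il18. That ratio ranged from 0.511 to 1.481 in Sham and from 0.692 to 1.07 in PM. It was 1.53, 2.32, 3.17, 2.18 and 0.856 in Sham-OVA and 2.23, 2.27, 2.34 and 1.89 in PM-OVA, where 1 Sham-OVA library, replicate 5, lay within the Sham range. The difference was 1.19 in Sham offspring (exact p = 0.00758, adjusted p = 0.0182) and 1.37 in PM offspring (exact p = 0.00606, adjusted p = 0.0182). Without Sham-OVA replicate 3, where Il18 rests on 3 reads, the difference in Sham offspring was 0.99, with an adjusted p of 0.0364 by the exact permutation test when that library alone was left out and 0.0727 when the 12 tests were adjusted without all 3 shallowest libraries. Il18bp itself was not called in either cohort, at 0.17 and -0.07 on the log2 scale.

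The third sets the decoy receptor Il1r2, which binds IL-1 without signalling, against the signalling receptor Il1r1. That ratio ranged from 0.0176 to 0.0754 in Sham and from 0.01004 to 0.0592 in PM, and it was 0.0959, 0.245, 1.32, 0.411 and 0.156 in Sham-OVA and 0.0482, 0.135, 1.11 and 1.90 in PM-OVA. The 3 values above 1 belong to the 3 shallowest libraries, where Il1r1 was at 4.35, 5.44 and 4.36 RPM against 22.9 to 78.1 RPM in the other OVA libraries. The difference was 3.34 in Sham offspring (exact p = 0.00253, adjusted p = 0.0152) and 3.90 in PM offspring (exact p = 0.0121, adjusted p = 0.0242). Without the 3 libraries it was 1.81 in PM offspring, from 2 libraries, too few to reach the threshold. For none of the 3 ratios did PM differ from Sham or PM-OVA from Sham-OVA by the test, with adjusted p from 0.653 to 0.931.

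**Figure D4:**
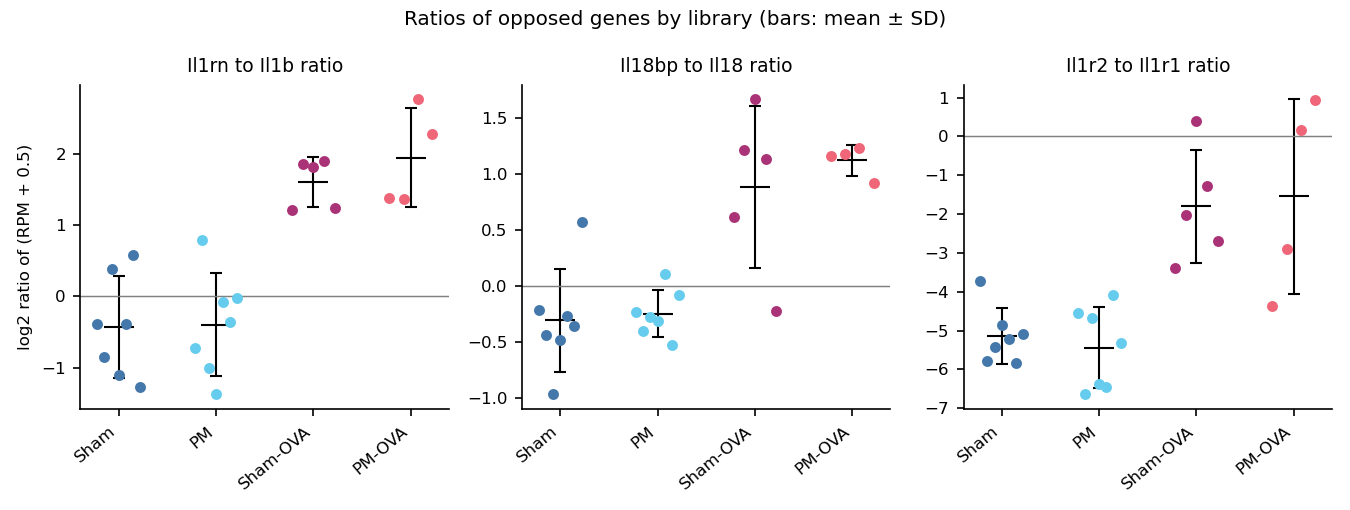
Ratios of Il1rn to Il1b, Il18bp to Il18 and Il1r2 to Il1r1 in each library, as log2 of the ratio of (RPM + 0.5), by group. Points are libraries and bars the mean ± SD. The Il1rn to Il1b ratio is above 0 in all 9 OVA libraries, and the Il1r2 to Il1r1 ratio spreads more widely in the OVA groups than in the saline groups.

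The wider pathway was described by 6 lists of 60 genes, read against the backgrounds above. In the IL-1 receptor family, 8 of 10 genes could be tested, of which 2 were higher and 4 lower in each cohort. The largest rise was that of Il1r2, by 1.43 (SE 0.38, limma adjusted p = 0.00433) in Sham and 1.35 (SE 0.48, limma adjusted p = 0.0257) in PM offspring, and Il1rl1, the receptor of IL-33, was the other gene that rose in both. The largest fall was that of the accessory chain Il1rap in Sham offspring, at -2.37 (limma adjusted p = 0.000284), and of Il1r1 in PM offspring, at -2.54 (limma adjusted p = 0.00261). Without the 3 shallowest libraries the Il1r1 value in PM offspring was -0.94 (limma adjusted p = 0.00975), still past the threshold. Il1r2, Il1rl1, Il1r1 and Il1rap kept their direction in all 15 other settings tried on the lists.

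Of the other IL-1 family ligands and the IL-18 binding protein, 3 of 7 could be tested. None was called in Sham offspring, where 2 had an unadjusted p under 0.05, and 1 was higher and 1 lower in PM offspring. Il33, an alarmin of epithelial and stromal cells, had the largest rise in both, at 0.62 (limma adjusted p = 0.0522) in Sham and 0.55 (limma adjusted p = 0.0230) in PM offspring. Il1f9, which encodes IL-36γ, had the largest fall, at -1.27 (limma adjusted p = 0.0571) and -1.39 (limma adjusted p = 0.0269).

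Of 16 genes of MyD88 signalling, the relay from the IL-1 receptors to NF-kappa-B, 2 were higher and 9 lower in each cohort. The kinase gene Irak4 had the largest rise in Sham offspring, at 0.62 (SE 0.14, limma adjusted p = 0.00162). In PM offspring the highest value was that of Nfkbia, an inhibitor of NF-kappa-B, at 0.40 and not past the threshold (limma adjusted p = 0.0812). Tab2, an adaptor of the TAK1 kinase, fell most in both, at -2.20 and -2.21. The number of lower genes in this list moved with the processing. With median-of-ratios scaling 4 genes were higher and 5 lower in the Sham cohort, and 4 higher and 8 lower in the PM cohort. With the trend on coding length removed, 2 genes were higher and 3 lower in the Sham cohort, and 4 higher and 5 lower in the PM cohort. The background moved as well, since 5463 of all 16795 genes were then higher and 5470 lower in the Sham cohort. In the PM cohort 5329 were higher and 5138 lower. Tab2 and Tab3 were lower and past the threshold in both cohorts in all 15 other settings.

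Of the other sensors, 9 of 13 could be tested, with 2 higher and 1 lower in Sham offspring and 2 higher and 3 lower in PM offspring. Mefv, which encodes the sensor pyrin, had the largest rise, at 1.07 (SE 0.26, limma adjusted p = 0.00227) and 0.96 (SE 0.25, limma adjusted p = 0.00451), and Nlrp12 the largest fall, at -0.98 and -1.15. The other gene that rose was Naip5, whose reads may be shared with near-identical Naip copies and are uncertain. With median-of-ratios scaling Mefv was still higher in both cohorts, while with the trend on coding length removed no gene of the list was lower in either cohort. Nlrp12 in Sham offspring was then at -0.18, and with the trend on transcript length removed at 0.08, in the opposite direction.

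Of the other caspases and pore formers, 5 of 6 could be tested, with 1 higher and 2 lower in Sham offspring and 1 higher and 3 lower in PM offspring. Ninj1, whose product ruptures the membrane of dying cells, rose by 1.34 (SE 0.17, limma adjusted p = 9.19e-06) and 1.37 (SE 0.17, limma adjusted p = 6.27e-05). Casp8, a caspase of cell death and inflammation, fell most, at -1.96 and -2.15. Both kept direction and threshold in all 15 other settings.

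Of 8 genes upstream of the inflammasome, 2 were higher and 5 lower in each cohort. Panx1, a membrane channel that releases ATP, rose most in Sham offspring, at 1.24, and Card9, an adaptor of antifungal sensing, in PM offspring, at 1.11. P2rx7, the ATP-gated channel that triggers potassium efflux ahead of Nlrp3, fell most in Sham offspring, at -1.69 (SE 0.38, limma adjusted p = 0.00130), and the lipopolysaccharide receptor Tlr4 in PM offspring, at -1.41 (SE 0.24, limma adjusted p = 0.000351). In none of the 6 lists was a gene called in PM against Sham, in PM-OVA against Sham-OVA or in the interaction, while 2 genes of the receptor family had an unadjusted p under 0.05 in PM against Sham.

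**Figure D5:**
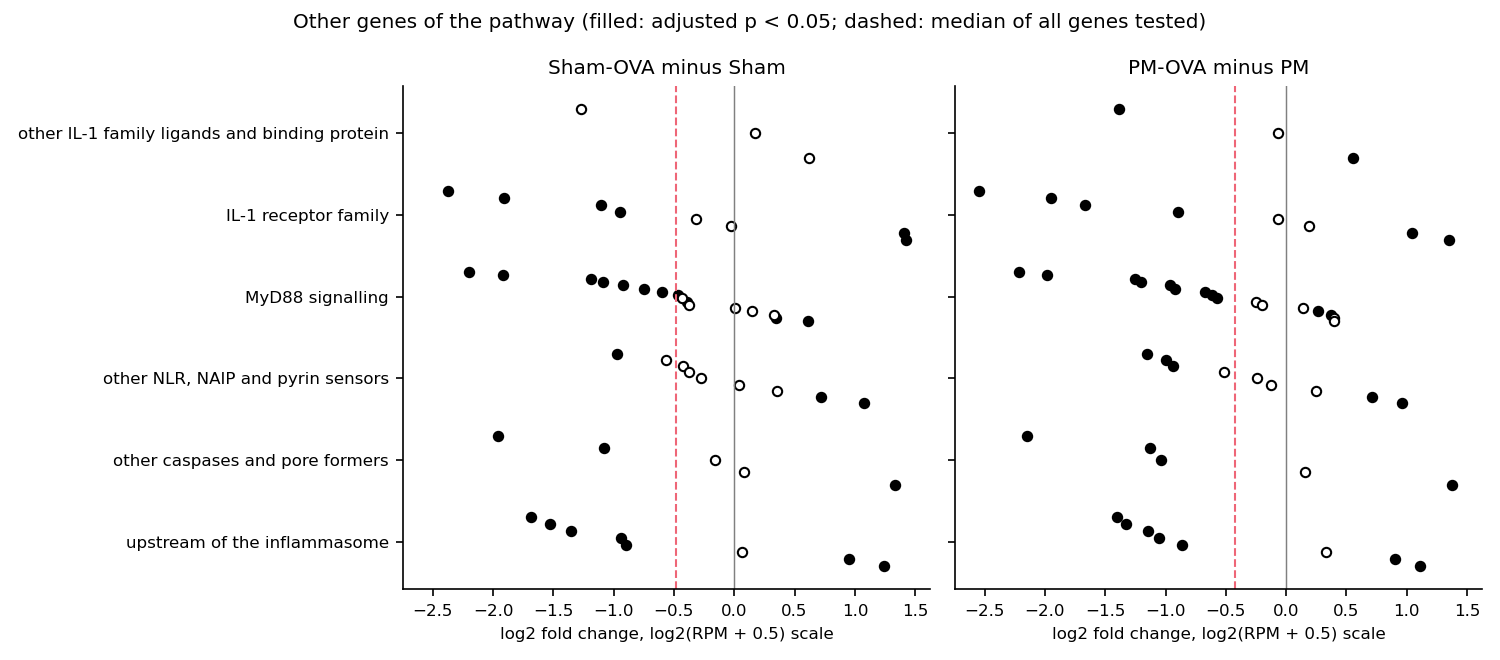
Log2 fold change with OVA challenge of every testable gene in the 6 lists, for Sham offspring (left) and PM offspring (right). Each point is a gene, filled where the limma adjusted p is under 0.05, and the dashed line marks the median of all genes tested, -0.48 and -0.43. Filled points lie on both sides of 0 in each list of Sham offspring except that of the other ligands.

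Genes whose profile over the 23 libraries was nearest to that of a called gene were found by the root mean square difference of mean-centred log2(RPM + 0.5) values. Nearest to Pycard were Ly86 and Cyba, at 0.24 and 0.26 on the log2 scale. Nearest to Il1rn were Snx20 and Pla2g7, at 0.32 each. Nearest to Il1a were Thbd and Tspan12, at 0.24 each. B4galt4 and Tmem71 were nearest to Nlrp3, Suco and Zfp111 to Nlrc4, and Lysmd2 and Mocs2 to Il18, at 0.28 to 0.32.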

How the data were processed

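RNA-Seq of lung from 23 offspring was grouped by the maternal exposure and challenge in the labels. Per the paper's methods, Trimmomatic, Bowtie2 (GRCm38) and SeqMonk were used by the authors for trimming, alignment and counting over genes. The deposited values are RPM in 1 table of 35322 genes, with 2 entries for Ptp4a1. Its name gives RPKM, for which the tests had been planned. In every library, however, 100% of the values equalled a whole number of reads (tolerance 0.02 reads) with no regard to gene length, which gave back the reads. The value of 1 read was 0.0502 to 0.0688 RPM in saline and 0.0672 to 0.311 RPM in OVA libraries.

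The 16795 genes that reached 0.5 RPM in 4 libraries or more entered the fits of log2(RPM + 0.5) by limma (3.58.1, in R 4.3.3; variance trend, Benjamini-Hochberg adjustment), which held the 2 groups compared or, for the interaction, all 4. Ratios of (RPM + 0.5) were compared in scipy 1.17.1. The fits were also run on counts simulated from the Sham means, with the real library sizes and a common dispersion. Those counts lack the differences in length trend between the OVA libraries, so they cannot vouch for the calls here. On the recovered reads, edgeR 4.0.16 called 11253 genes for OVA challenge in the Sham cohort and 10215 in the PM cohort, and DESeq2 1.42.0 called 11677 and 10697. The other alternatives were pseudocounts of 0.1 and 1, filters, scalings, all 4 groups in 1 fit, array weights, a replicate block, removal of the trend with exon length and leaving out each library. Removing the trend with transcript or coding length and leaving out the 3 shallowest libraries were added after seeing the data. Coding length was known for 88.1% of tested genes. Dams are not named, so p-values measure the spread between animals that may share litters.

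The 10 genes and the lists were chosen with earlier results of these data known. Named are all 10, the genes of the ratios, the genes with the largest rise and fall in each list and OVA comparison, and the 2 genes nearest in profile to each gene called in both OVA comparisons. Further genes were named, where a count was small, after their values were seen. A cell type marker is not reported here and was left out of its list.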

Additional observations from a re-analysis of the deposited data

Results flagged for a closer look

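Each of the 10 genes and 3 ratios was checked in each of the 4 groups, 52 groups in all, for a library far from the rest by Dixon's test, which flags about 1 in 20 groups by chance. In Sham-OVA, replicate 3, the shallowest library, lay below the other 4 for Nlrc4 (log2(RPM + 0.5) of 0.17 against 1.01 to 1.25), for Casp1 (0.52 against 2.19 to 2.87) and for Gsdmd (3.43 against 5.25 to 5.71). Nlrc4 and Casp1 had 2 and 3 reads there. Leaving that library out changed the log2 fold change of Gsdmd with OVA from -0.76 to -0.35 and that of Casp1 from -0.56 to -0.15. In PM-OVA, replicate 3 lay below the other 3 for Nlrc4, at -1, which stands for 0 reads, against 1.14 to 1.58. In PM, replicate 5 lay below the other 6 for Il1a, at 2.44 against 4.02 to 4.602. This is a saline library of ordinary depth. Over all genes tested it correlated with the other PM libraries at 0.9741 to 0.9775, against 0.9875 to 0.9923 among those others. Pairs of Sham libraries stood at 0.9705 to 0.9928. The part of depth, RNA quality or tissue sampling in these values was not tested.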

How the results depend on the processing

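Pycard and Il1rn were past the threshold in both cohorts under all alternatives, Il1a under all in the Sham cohort and all but the one without the 3 shallowest libraries in the PM cohort. The count of 7 genes called in the Sham cohort was 4 with no filter, quantile normalisation, median-of-ratios scaling, the replicate block, the coding length trend removed and DESeq2, 3 with edgeR, 1 at the stricter threshold, and 4 to 7 when 1 library was left out, with 4 without Sham replicate 2, 3 or 4 and 6 without Sham replicate 1. In the PM cohort the count of 6 was 0 at the stricter threshold, 4 with the coding length trend removed or without the 3 shallowest libraries, 6 with the replicate block, 7 with the exon or transcript length trend removed, 8 with array weights, and 5 to 9 when 1 library was left out, with 9 without PM-OVA replicate 1. At the stricter threshold DESeq2 called 3 of the 10 in each cohort. The number of all genes called at 0.05 moved too. In the Sham cohort it was 11431 of 16795 in the main comparison, 10025 with the replicate block and 10914 to 12146 when 1 library was left out. It was 11819 of 22661 with no filter, 11296 with quantile normalisation and 11310 with median-of-ratios scaling. With the coding length trend removed it was 10933, with edgeR 11253 and with DESeq2 11677 of 16681. In the PM cohort it was 10968 in the main comparison, 11788 with array weights and 8569 without the 3 shallowest libraries. It was 7982 with the replicate block, and 10374, 10152 and 10467 with the exon, transcript and coding length trends removed. When 1 library was left out it was 9592 to 12083, the most without PM-OVA replicate 1. Among the 10 genes, the calls lost are mainly those of Nlrc4 in both cohorts and of Gsdmd and Il18 in the Sham cohort, with adjusted p close to 0.05 in the main comparison. In the PM cohort Nlrc4 was past the threshold in 8 of 26 alternatives. The 4 same-numbered PM-OVA and Sham-OVA libraries correlated in their deviations at -0.31 to 0.62, and those of the other contrasts at -0.25 to 0.12. These are the numbers of the sample titles, most of which differ from those in the library names in the OVA groups. The check therefore cannot decide whether animals were paired, and the labels give no shared litter. The interaction called 5 of the 10 genes with array weights and 0 under the others.

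Among the 10 genes, signs that changed belong to values that had not passed the threshold, except that of Nlrc4. In the pathway lists, genes called lower that changed sign in 1 to 3 of 15 other settings were Nlrp12, Irak1, Tab1, Traf6, Map3k7 and Ikbkb in the Sham cohort and Traf6, Map3k7, Ikbkb, Nlrc5 and Gsdme in the PM cohort. In the Sham cohort Aim2 was at 0.32 with quantile normalisation, 0.13 with median-of-ratios scaling, 0.15, 0.25 and 0.10 with exon, transcript and coding length trends removed, 0.22 with edgeR and 0.13 with DESeq2. Nlrc4 was at 0.21 and 0.18 with transcript and coding length trends removed, Casp1 at 0.030 with edgeR, and Il1b at -0.012 with the replicate block and -0.053 to 0.46 when 1 library was left out. Gsdmd in the PM cohort was at 0.12 without the 3 shallowest libraries.

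Without those 3 libraries the Il1rn to Il1b difference was 1.77 and the Il18bp to Il18 difference 1.42 in the PM cohort, where 2 against 7 libraries cannot reach the threshold (smallest p 0.0556), and the Il18bp to Il18 difference was 0.99 in the Sham cohort (adjusted p = 0.0727, exact permutation test). The Il1r2 to Il1r1 difference in the PM cohort was 1.81 without them and 3.07 to 4.84 when 1 library was left out, where 3 against 7 libraries gave an adjusted p of 0.0667 without PM-OVA replicate 2, 3 or 4. Between PM-OVA and Sham-OVA the Il1rn to Il1b and Il1r2 to Il1r1 differences were -0.18 and -1.29 without the 3 libraries, and the latter was -0.57 to 1.19 and that of Il18bp to Il18 -0.035 to 0.44 when 1 was left out. Between PM and Sham, leaving out 1 library gave -0.16 to 0.20 for Il1rn to Il1b and -0.049 to 0.21 for Il18bp to Il18.

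Of the 558 log2 fold changes of single genes under alternatives, 461 kept direction and side of the threshold, 69 lost and 13 gained a call, and 15 changed sign. Depth limits the low genes most, since 1 read is worth 0.311 RPM in Sham-OVA replicate 3.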
